A study of Mus musculus with 4 samples.

Results

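The cells described here were sorted as Nestin-GFP cells from the embryonic mouse forebrain on day E15.5, and come from the library whose deposited files are named CTX (cortex, dorsal) and the library whose files are named GE (ganglionic eminence, ventral). They are all barcodes with at least 1000 detected genes, at most 10% of unique molecular identifiers (UMIs) from mitochondrial genes and at most 30000 UMIs. The rule kept 541 cells of the CTX library and 928 of the GE library, 1469 of the 5644 cells that pass the same filters in the whole series. Embryos carried a Nestin-GFP and a DCX-mRFP reporter, from a heterozygous Nestin-GFP parent and a homozygous DCX-mRFP parent, and cells with green fluorescence were taken by flow cytometry and put through 10x Genomics 3' v2 chemistry. The reporter genotype, the sort and the chemistry are the same in all 4 libraries, which are 1 CTX and 1 GE library at E15.5 and 1 of each at E18.5. The sort selects by reporter fluorescence and not by cell type, and how many embryos a library pools is not stated in the sources at hand. Each region and age is 1 library without replicates. No test was made, and the intervals given (95%) cover counting error only.

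The sample titles give the other region for every library: the library of the CTX files is titled GE and that of the GE files is titled cortex, at both ages. Libraries are called here by the names of their files, and every direction below would turn round if the titles were used. The genes that define the regions go with the file names. Emx1, a transcription factor of the dorsal forebrain, had 263 counts per 1000000 UMIs (CPM) in the E15.5 CTX library and 0.593 in the E15.5 GE library. Nkx2-1, the patterning factor of the medial eminence, had 1.03 CPM in the CTX library and 265 CPM in the GE library. The cortical marker genes Neurog2, Eomes, Neurod6 and Tbr1 and the eminence marker genes Dlx1, Dlx2, Gad2, Gsx2 and Lhx6 all point the same way as these.

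Progenitors of the cortex and of the ganglionic eminences share the features of radial glia but pass through different transcription factor cascades. In the cortex, Pax6 and Emx genes act in radial glia, Neurog2 starts neurogenesis, Eomes (Tbr2) marks intermediate progenitors, and NeuroD genes and Tbr1 follow in glutamatergic neurons. In the eminences, Gsx genes act in progenitors and Dlx genes lead to GABAergic neurons, with Nkx2-1, Lhx6 and Lhx8 in the medial part and Isl1 and Meis genes in the lateral part. Later in gestation progenitors of both regions turn to making glia.

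Both libraries hold dividing progenitors and young neurons, so they are called cells and not progenitors here. Neurod6, a factor of postmitotic pyramidal neurons, was found in 80.4% of CTX cells at 10000 UMIs (83.2% without thinning). A Neurod6 UMI did not set apart cells outside division. Of the 79 CTX cells with Neurod6 and no Eomes UMI, 32.9% had a Mki67 or Top2a UMI. With each cell thinned to 10000 UMIs, Sox2, a stem cell factor, was found in 65.1% of CTX cells (60.9 to 69.1%) and in 96.4% of GE cells, and in 74.9% and 98.1% without thinning. Dcx, a microtubule protein of young neurons, was found in 67.8% of CTX cells and 47.2% of GE cells (76.3% and 55.1% without thinning), and Tubb3, a neuronal tubulin, in 88.2% and 93.2% (92.4% and 95.8%). Stmn2 and Map2, also neuronal, were found in 38.4% and 60.8% of CTX cells, and in 50.2% and 65.6% of GE cells. Among other progenitor markers, Fabp7 (95.4% and 82.9%) and Nes (47.1% and 38.7%) were found in more CTX cells. Vim (92.2% and 94.5%) and Hes5 (40.5% and 40.2%) were close. Neuronal and progenitor markers thus each pointed to both sides. The 2 reporter genes did not reach a 2-fold difference: Nes had 105 and 78.3 CPM and Dcx 272 and 170 CPM in the CTX and GE libraries. A UMI of Mki67 or Top2a, genes of dividing cells, was found in 280 of 541 CTX cells (51.8%, 47.5 to 56.0%) and in 784 of 928 GE cells (84.5%), and without thinning in 343 and 817 cells. The sort, the cell calling and the 30000-UMI limit can set these shares, and their part was not tested. In sums over a library, fewer cells of a type and less RNA per cell cannot be told apart.

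The E15.5 cells were deep, with medians of 17189 UMIs in the CTX library and 14624.5 in the GE library against 9866.5 and 8755 at E18.5. The UMI limit took away 335 of 879 CTX barcodes and 240 of 1170 GE barcodes. Of the barcodes over the limit 88.1% and 88.3% held both Xist, expressed from the inactive X of females, and a Y-linked UMI, which a single cell without free RNA should not. Among the kept cells the shares were 35.7% in the CTX library and 22.6% in the GE library, and how much of this comes from barcodes with more than 1 cell, and how much from free RNA, was not tested. At E18.5 they were 8.24% and 5.64%. The 2 E15.5 libraries share 1 barcode. Totals for CPM left out mitochondrial, ribosomal protein and haemoglobin genes and were 7759591 and 11811177 UMIs at E15.5, and 9615371 and 22917516 at E18.5.

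A gene was measured if it had at least 20 CPM in 1 of the 2 libraries compared, and was called if it was at least 2-fold apart with an interval that excludes 1. At E15.5, 853 of 7380 measured genes were called (11.6%), 487 higher in CTX (6.6%) and 366 higher in GE (4.96%). At E18.5, 399 of 7804 were called (5.11%), 285 higher in CTX (3.65%) and 114 higher in GE (1.46%). Scaling by trimmed means of M-values (TMM) lowers every E15.5 log2 ratio by 0.16 and turns the E15.5 balance to 392 CTX-higher and 472 GE-higher genes, and that at E18.5 to 213 and 177. The median log2 ratio (CTX over GE) of all measured genes was 0.10 at E15.5 and 0.09 at E18.5. Shares of called genes in the lists below are to be read against these percentages.

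The 853 genes were split by what they did at E18.5. Of the 487 CTX-higher genes 124 were also called higher in CTX at E18.5, 121 lay in between, 112 were under 20 CPM in both E18.5 libraries, and 130 were within 1.41-fold at E18.5 (a log2 ratio of at most 0.5 in size). Of the 366 GE-higher genes 89 were called the same way at E18.5, 166 lay in between, 29 were low, 3 were called the opposite way and 79 were within 1.41-fold. The 130 and 79 genes, 1.76% and 1.07% of the measured genes, are said here to differ at E15.5 and not at E18.5. This is a limit on size and not an absence of difference. Their median log2 ratios at E18.5 were 0.309 and -0.276, in the same direction as at E15.5. The ratio changed at least 2-fold between the ages in 72 of the 130 and 42 of the 79. The classes differ in size of the E15.5 ratio: the median log2 ratio was 2.88 in CTX-higher genes shared with E18.5 and 1.24 in those of E15.5 only, and -1.79 against -1.26 in the GE-higher genes.

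**Figure D1:**
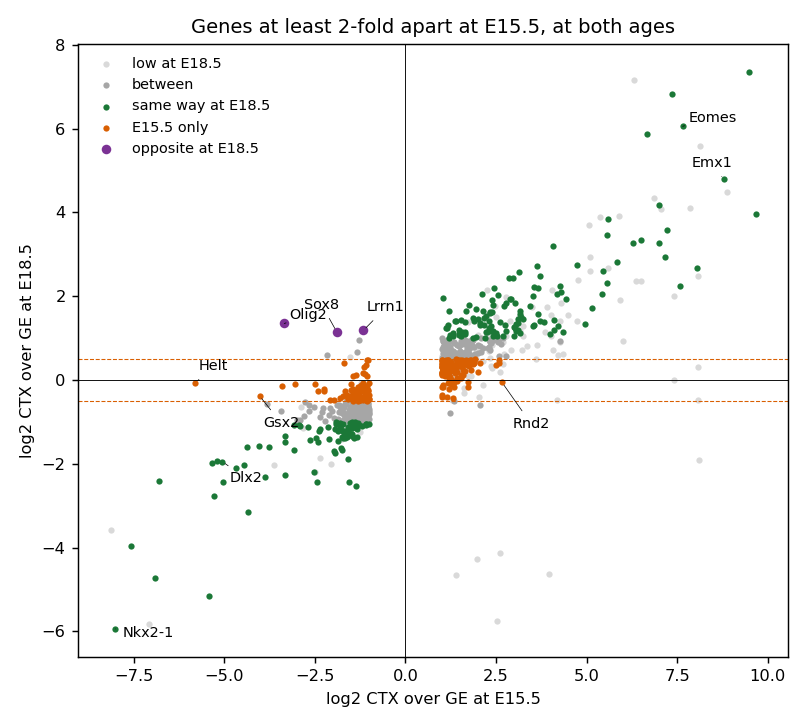
Each point is 1 of the genes called at E15.5, with its log2 ratio of CTX to GE at E15.5 (x axis) and at E18.5 (y axis), coloured by its class at E18.5; a gene at 0 UMIs in a library is drawn at the bound that 3 counts give. The orange band between the dashed lines at -0.5 and 0.5 holds the genes that differ at E15.5 only (130 CTX-higher, 79 GE-higher), Helt and Gsx2 lie far to its left, and the 3 purple points (Olig2, Sox8, Lrrn1) lie above it.

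Of 13 measured genes of the glutamatergic neurogenic cascade, 10 were higher in CTX at E15.5 and 0 in GE, with a median log2 ratio of 6.28. Those 10 had at most 8.38 CPM in the GE library. The other 3, which eminence cells also express, were Insm1 (447.7 and 432 CPM), Btg2 (342 and 282 CPM) and Gadd45g (580 and 852 CPM). Neurog2, the proneural factor of the cortex, had 1388 CPM in CTX and 8.38 in GE at E15.5, and 211.7 and 1.88 at E18.5. Eomes had 614 and 3.05 CPM at E15.5, and 133.5 and 2.01 at E18.5. Both genes were far higher in CTX at both ages, at lower levels in the later CTX library. Neurod6 had 975 and 7.62 CPM at E15.5, and 94.1 and 5.24 at E18.5. Neurog1, a partner of Neurog2 early in neurogenesis, had 69.2 and 0.254 CPM at E15.5 and under 1 CPM in both E18.5 libraries.

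Of 11 measured pallial progenitor factors, 8 were higher in CTX and 0 in GE (median log2 ratio 2.56). Emx1 had a fold of 443.8 (215 to 1105) at E15.5 and of 27.6 (18.7 to 42.2) at E18.5. Pax6, a factor of radial glia, had 289 and 41.9 CPM at E15.5, and Dmrta2, which restrains ventral fate, 179 and 3.81 CPM. Lhx2, a LIM homeobox factor, had 644 and 109 CPM. The 3 factors that were not called were Gli3, Nr2e1 and Zbtb20. Tfap2c, a factor of basal progenitors, had 104 and 1.02 CPM, and Fezf2, which specifies deep-layer projection neurons, 176.6 and 1.19 CPM. Of 15 cortical excitatory neuron genes, 11 were higher in CTX and 0 in GE (median 2.05). They include the glutamate transporter gene Slc17a6 (39.4 and 0.169 CPM) and the somatostatin receptor gene Sstr2 (290 and 3.22 CPM). Nrn1, a neurite growth protein, had 209 and 0.254 CPM, the largest log2 ratio of the genes named (9.68).

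Ventral genes were low in the E15.5 CTX library. All 5 measured Dlx genes were higher in GE (median log2 ratio -5.06), as were 9 of 10 subpallial progenitor factors (median -4.71) and all 5 genes of GABA synthesis and transport (median -2.76). Dlx1, a homeobox factor of the whole eminence, had 21.4 CPM in CTX and 859.7 in GE at E15.5, and 159 and 626.6 at E18.5. Its log2 ratio was -5.33 at E15.5 and -1.98 at E18.5, and its level in CTX was higher at the later age. Gad2, which makes GABA, had 21.5 and 165 CPM at E15.5, and 71.0 and 149 at E18.5. Gsx1, a progenitor factor, had 0.773 and 85.7 CPM, and Six3, a factor of the lateral eminence, 0.773 and 93.2 CPM.

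Genes of the medial and lateral eminences were both found in the GE library. Of 13 measured genes of the medial list 7 were higher in GE and 1 in CTX (Zic1, outside the naming rule), and of 13 of the lateral and caudal list 4 were higher in GE and 3 in CTX. Lhx8, a factor of cholinergic neurons, had 0 UMIs in the CTX library and 52.2 CPM in GE, at least 135.1-fold higher against a floor of 3 counts. Isl1, a factor of striatal projection neurons, had 1 UMI (0.129 CPM) in CTX and 36.3 CPM in GE. Slc18a2, the vesicular monoamine transporter, had 0.387 and 74.4 CPM. Foxp2 and Foxp4, forkhead factors that are also expressed in deep cortical layers, were higher in CTX, with log2 ratios of 1.55 and 2.71.

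Cells of the GE library could be set apart by 2 genes. A UMI of Nkx2-1 was found in 335 GE cells (36.1%) at 10000 UMIs, Gsx2 without Nkx2-1 in 306 (33.0%), and neither in 287. Lhx6 and Lhx8 went with Nkx2-1: Lhx6 had 149 CPM in Nkx2-1 cells against 11.6 in Gsx2 cells, and Lhx8 130 against 5.37. Helt was higher in the Gsx2 cells (190.5 against 68.7 CPM), and Isl1 was close in both (32.6 and 39.1 CPM). In the CTX library 403 cells (74.5%) had an Eomes UMI, 79 had Neurod6 without Eomes, and 59 had neither. The Eomes cells had 53.1% with a Mki67 or Top2a UMI, the Neurod6 cells 32.9% and the others 67.8%. These values describe cells grouped by a gene of the same data, with no test.

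**Figure D2:**
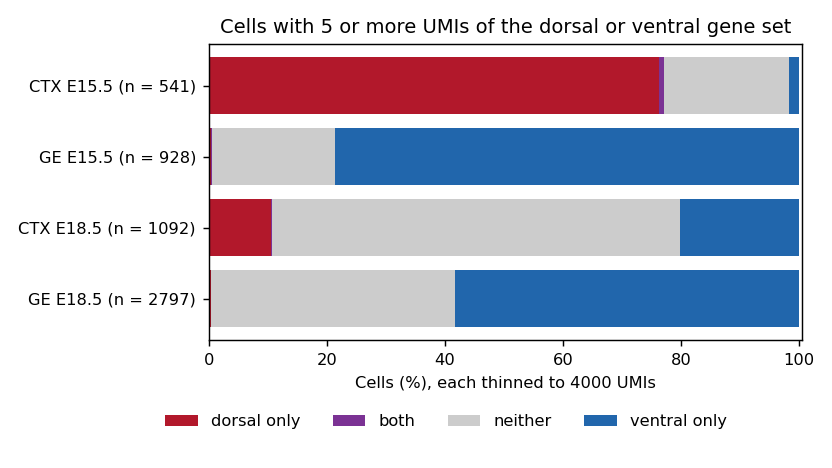
Stacked bars give the percent of cells of each library, thinned to 4000 UMIs, with at least 5 UMIs over a dorsal set (Emx1, Neurod2, Neurod6, Eomes, Neurog2), a ventral set (Dlx1, Dlx2, Dlx5, Dlx6os1, Gad2), both or neither. At E15.5 the dorsal bar fills 76.3% of CTX and the ventral bar 78.7% of GE. At E18.5 CTX has more cells with the ventral set alone (20.1%) than with the dorsal set alone (10.6%), and most had neither (69.1%).

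Cells with genes of the other region were few at E15.5. At 10000 UMIs, 460 of 541 CTX cells (85.0%) had at least 5 UMIs of the dorsal set, and 43 (7.95%, 5.81 to 10.6%) had at least 5 of the ventral set. Of those 43 cells, 31 also had the dorsal set. In the GE library 834 of 928 cells (89.9%) had the ventral set and 7 (0.754%, 0.304 to 1.55%) the dorsal set. In CTX 454 cells had no ventral UMI at all, and the 6 cells with most held 28.1% of the ventral UMIs, so these UMIs were concentrated in a minority of cells. Whether barcodes with more than 1 cell carry the joint signal was not tested. At 4000 UMIs, where the ages can be set side by side, cells with the ventral set alone were 9 of 541 (1.66%) in CTX at E15.5 and 219 of 1092 (20.1%, 17.7 to 22.6%) at E18.5. The same shares in GE were 78.7% and 58.4%, the latter without 286 shallower cells.

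The 12 largest ratios among the 130 genes higher in CTX at E15.5 only were those of Rnd2, Cotl1, Syt4, Igfbpl1, Nrp1, Itpk1, Pou3f1, C1qtnf4, Elavl2, Sparc, Dnajb2 and Sfxn5. Rnd2, a small GTPase that Neurog2 controls in migrating cortical neurons, had 260.3 CPM in CTX and 41.1 in GE at E15.5, and 55.3 and 57.4 at E18.5. Only the E15.5 CTX library was high, and the E15.5 fold of 6.34 (5.74 to 7.01) had gone to 1.04 (GE higher) at E18.5. Igfbpl1, an insulin-like growth factor binding protein of young neurons, had 1740 and 305 CPM at E15.5, and 427.5 and 333 at E18.5. Nrp1, a semaphorin co-receptor, had 139 and 33.6 CPM at E15.5, and 32.5 and 24.7 at E18.5. Cotl1, an actin-binding protein, had 297 and 49.1 CPM, and then 95.6 and 68.6. In each of these genes the E15.5 CTX library stood above the other 3.

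Other neuronal genes had the same pattern. Syt4, a synaptotagmin, had 94.98 and 15.9 CPM at E15.5, and 26.8 and 20.2 at E18.5. Elavl2, a neuronal RNA-binding protein, had 577 and 157 CPM, and then 177.5 and 131. Of 21 measured pan-neuronal genes, 6 were higher in CTX at E15.5 and 1 in GE (Nrxn3), and 3 of the 6 were of the E15.5-only class: Elavl2, Syt4 and Scrt2, a repressor of the Snail family. Axon guidance genes were among the class too. Of 14 measured semaphorin, plexin and neuropilin genes, 5 were higher in CTX and 1 in GE, and Nrp1, Plxna4 and Sema6d on the CTX side and Sema6a on the GE side were of the E15.5-only class. Plxna4, a plexin that pairs with neuropilins, had 43.9 and 17.8 CPM at E15.5, and 24.6 and 33.1 at E18.5, where TMM scaling takes its log2 ratio to -0.58 and out of the class. Lrp8, a reelin receptor, had 139 and 58.0 CPM, and then 87.8 and 74.2.

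The nuclear factor I genes, which act in neuron maturation and later in gliogenesis, differed together. Nfib had 1498 CPM in CTX and 463 in GE at E15.5, and 913 and 690 at E18.5. Nfix had 689.5 and 209.5 CPM, and then 395 and 408. Nfia had 400.4 and 177 CPM, and then 425 and 324. The E15.5 folds of Nfib and Nfix were 3.24 (3.13 to 3.34) and 3.29. They came to E18.5 by different routes: Nfib and Nfix were lower in the later CTX library and higher in the later GE library, while Nfia was at a like level in both CTX libraries. Of 12 measured gliogenic factors, 6 were higher in CTX at E15.5 and 3 in GE, among them Olig2 and Sox8.

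The class also held other transcription factors and a Wnt ligand. Emx2, the paralogue of Emx1, had 72.4 and 26.7 CPM at E15.5, and 46.6 and 40.6 at E18.5, and was the 1 pallial factor of the class. Zbtb18, a zinc finger repressor of cortical neurons, had 162 and 49.8 CPM, and then 76.9 and 58.8. Pou3f1, a POU factor, had 141 and 37.0 CPM, and then 65.7 and 46.6. Bcl11a and Tcf4, broad forebrain factors, were close to the 2-fold limit (log2 ratio 1.02 each) and were not past it with TMM scaling (0.86 each). Id4, an inhibitor of bHLH factors, had 293 and 91.0 CPM, and then 204 and 161. Wnt7b, a cortical Wnt ligand, had 61.9 and 28.1 CPM, and then 23.6 and 31.3. It left the class with TMM scaling (log2 ratio 0.98 at E15.5) and was called neither among dividing cells (0.89) nor among the others (0.52).

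Sparc, a matrix protein also listed in the class, rested on vascular cells. It had 172 and 47.2 CPM at E15.5, but 902 of its 1333 CTX UMIs lay in 18 barcodes rich in vascular, blood or microglial genes. Without such barcodes, an alternative added after seeing the data, its log2 ratio was 0.28 against 1.86 with them. In the same alternative 119 of the 130 CTX-higher genes and 74 of the 79 GE-higher genes stayed in the class. Ptp4a3 (1.07 to 0.36) and Ralb (1.04 to 0.62) also left it by more than a rounding of the limit, and were singled out after their values were seen.

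The largest ratios among the 79 genes higher in GE at E15.5 only were those of Helt and Gsx2, the 2 members of the subpallial progenitor list in the class. They were followed by G0s2, Sulf2, Tnfaip6, Atp1b1, Meis1 and Lhx6. Helt, a bHLH repressor of GABAergic progenitors, had 2.19 CPM in CTX and 122.8 in GE at E15.5, and 81.4 and 85.6 at E18.5. It was found in 1.48% of CTX cells (0.641 to 2.89%) and 38.4% of GE cells at E15.5 (1.48% and 45.6% without thinning). Its fold went from 56.1 (34.9 to 96.5) to 1.05 (0.967 to 1.14), the widest change of the class. Gsx2, which specifies the lateral eminence, had 7.60 and 124 CPM at E15.5, and 56.2 and 73.0 at E18.5. Its folds were 16.3 (12.6 to 21.5) and 1.299, so Gsx2 was still higher in GE at E18.5. Both genes had their lowest value in the E15.5 CTX library and their highest in the E15.5 GE library, and at E18.5 the CTX level was higher and the GE level lower. With TMM scaling the E18.5 log2 ratio of Gsx2 was -0.53, which takes it out of the class. Lhx6, a factor of medial eminence interneurons, had 14.0 and 66.3 CPM, and then 51.3 and 61.9. Meis1, a homeobox factor of the lateral and caudal eminence, had 9.79 and 46.7 CPM, and then 35.9 and 41.5.

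Where these genes lay in the later CTX cells differed. At 4000 UMIs Lhx6 was found in 95 of 221 CTX E18.5 cells with the ventral set (43.0%) and in 32 of the 871 others (3.67%). Helt was found in 29 and 135 cells of the same groups (13.1% of those with the ventral set), and Gsx2 in 14.5% and 11.3%. Lhx6 thus went with the ventral set, and Helt and Gsx2 were spread over cells with and without it. Olig2 was found in 19.9% and 54.6%.

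Genes that are not transcription factors were also in the class. G0s2, an inhibitor of lipolysis, had 2.58 and 27.6 CPM at E15.5, and 33.5 and 36.9 at E18.5. Sulf2, an extracellular sulphatase of heparan sulphate, had 2.96 and 24.6 CPM, and then 22.9 and 24.4. Atp1b1, a sodium pump subunit, had 12.5 and 66.0 CPM, and then 137 and 166, higher in both later libraries. Tnfaip6, a hyaluronan-binding protein, had 9.79 and 55.5 CPM, and then 36.8 and 39.3. Ptch1, the Hedgehog receptor and itself a target of the pathway, had 8.51 and 27.1 CPM, and then 35.4 and 42.2. The other called Hedgehog genes pointed the other way: the co-receptor genes Gas1 (292 and 65.2 CPM), Cdon (78.7 and 10.7 CPM) and Boc (34.9 and 7.28 CPM) were higher in CTX, so 3 of 8 measured members were higher in CTX and 1 in GE (median log2 ratio 0.67).

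Cell division and stem cell genes were among the GE-higher genes. Of 20 measured S phase genes 17 were higher in GE at E15.5 and 0 in CTX (median log2 ratio -1.1), and at E18.5 3 of 20 were. Pcna, the polymerase clamp, had 151 and 438.5 CPM at E15.5, and 231.5 and 310.2 at E18.5. Mcm2, Mcm3 and Mcm6, parts of the replicative helicase, were also of the E15.5-only class, with log2 ratios between -1.09 and -1.01. Pcna, Mcm2, Mcm3 and Mcm6 all left the class with TMM scaling, which takes their E18.5 log2 ratios to between -0.60 and -0.50. Of 21 G2 and M phase genes 10 were higher in GE and 0 in CTX, none of them of the E15.5-only class, and of 19 cyclins and CDK genes 8 and 0. With TMM scaling the 3 lists had 19, 14 and 11 genes higher in GE. Ccnd2, the D cyclin of forebrain progenitors, had 1033 and 3361 CPM. Sox2 had 213 and 527 CPM at E15.5, and 620 and 769 at E18.5. Hes5, an effector of Notch, had 118 and 240.1 CPM, and then 446 and 322. Hes5 was found in near-equal shares of E15.5 cells (40.5% and 40.2%, or 52.9% and 48.9% without thinning), and its log2 ratio of -1.03 was close to the limit.

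The levels behind each class were set side by side across the ages, as in the plot of the leading genes by library. Among the 79 GE-higher genes, the CTX library was at least 2-fold higher at E18.5 than at E15.5 in 33 and the GE library at least 2-fold lower in 3, and neither library moved 2-fold in 43. CTX moved more than GE in 63. The median log2 change with age was 0.87 in CTX and -0.20 in GE. Among the 130 CTX-higher genes, CTX was at least 2-fold lower at E18.5 in 34 and GE at least 2-fold higher in 19, and neither moved 2-fold in 77. The median log2 changes were -0.63 and 0.39, and CTX moved more in 78 and GE in 52. These changes set each gene against its own E15.5 value, which also chose the class, so their direction is in part fixed by the choice.

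**Figure D3:**
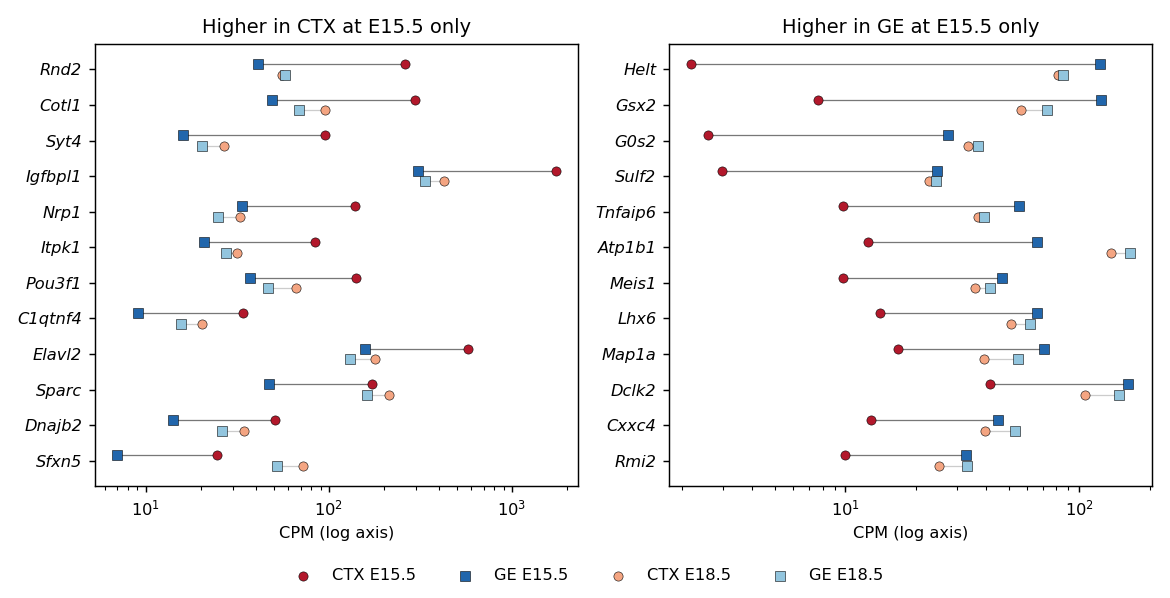
CPM (log axis) in the 4 libraries of the 12 genes with the largest E15.5 ratio in each E15.5-only class, CTX-higher on the left and GE-higher on the right; circles are CTX, squares GE, dark E15.5 and light E18.5, with lines joining the libraries of 1 age. The dark pairs are far apart (2.19 and 122.8 CPM for Helt) and the light pairs close together (81.4 and 85.6 CPM).

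The choice of the class has sharp edges. Just inside the 2-fold limit at E15.5 were Ly6h in CTX (log2 1.001) and Cenpp in GE (-1.002), and just outside Tanc2 (0.997) and Chic2 (-0.999). At E18.5 the last genes inside were Nrcam (0.495) and Bard1 (-0.494), and the first outside Fmnl2 (0.504) and Anln (-0.507). Of the 130 and 79 genes, 50 and 25 stayed in the class under all of 9 other choices of cells or scaling. They include Rnd2, Igfbpl1, Nfia, Nfib, Nfix, Zbtb18, Elavl2, Syt4, Id4 and Emx2 on the CTX side, and Helt, Lhx6, Meis1, G0s2, Atp1b1, Tnfaip6, Ptch1, Sox2 and Lmo3 on the GE side. Gsx2 left the class under at least 1 of the choices, while its E15.5 log2 ratio stayed between -4.92 and -3.72. The 9 choices leave out the split of cells by a Mki67 or Top2a UMI. Among unthinned cells with such a UMI, 55 of the 130 and 39 of the 79 genes stayed in the class. Among cells without, 45 and 31 did.

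Upstream sequences of 3 leading GE-higher genes are shown to set the letters CAGCTG, a form of the E-box read by bHLH factors, beside the genes that differ at E15.5 only. The 250 bases before the RefSeq start were searched on both strands for 4 motifs. CAGCTG was set beside another E-box form linked to Neurog2 and NeuroD factors, which reads CAGATG. The homeobox core searched was TAATTA, and the letters linked to Gli factors were GACCACCCA. No matches overlap in the windows shown. CAGCTG stood in 15 of 68 GE-higher E15.5-only genes with an entry (22.1%), in 12 of 96 CTX-higher ones (12.5%), in 9.92% of measured genes and in 12.8% of all promoters. CAGATG stood in 10.3%, 15.6%, 8.63% and 14.5% in the same order. TAATTA stood in 2.94%, 2.08%, 1.99% and 4.9%, and GACCACCCA in 1.47%, 0%, 0.175% and 0.211%. In genes called the same way at E18.5, CAGCTG stood in 8.96% of GE-higher and 8.79% of CTX-higher ones, and CAGATG in 16.4% and 8.79%. Over all genes called at E15.5, CAGCTG stood in 14.3% of GE-higher and 11.3% of CTX-higher ones, and CAGATG in 11.5% and 11.3%. These are counts of letters, with no test, and not sites. The sequences are from RefSeq on GRCm38.p6, 5′ to 3′ on the strand of the gene, with the motif in capitals. Lhx6 (chr2:36105409-36105658, minus strand) held CAGCTG at 2 places and Sulf2 (chr2:166155684-166155933, minus strand) at 1. Helt (chr8:46294672-46294921, minus strand) held none of the 4 motifs in this window. Of the other leading GE-higher genes searched, G0s2 held CAGCTG. Gsx2, Tnfaip6, Atp1b1, Meis1, Map1a, Dclk2 and Cxxc4 did not, so CAGCTG was less frequent among these than among the 3 shown.
Lhx6: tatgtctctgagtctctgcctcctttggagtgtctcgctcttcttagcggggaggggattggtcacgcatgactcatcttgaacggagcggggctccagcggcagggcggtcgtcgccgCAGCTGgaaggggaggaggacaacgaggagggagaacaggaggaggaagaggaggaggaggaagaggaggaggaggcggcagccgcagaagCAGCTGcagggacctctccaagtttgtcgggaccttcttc
Sulf2: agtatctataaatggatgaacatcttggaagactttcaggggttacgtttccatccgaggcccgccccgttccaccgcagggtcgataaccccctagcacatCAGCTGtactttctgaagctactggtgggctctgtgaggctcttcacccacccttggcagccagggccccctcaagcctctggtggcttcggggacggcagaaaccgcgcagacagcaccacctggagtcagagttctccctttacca
Helt: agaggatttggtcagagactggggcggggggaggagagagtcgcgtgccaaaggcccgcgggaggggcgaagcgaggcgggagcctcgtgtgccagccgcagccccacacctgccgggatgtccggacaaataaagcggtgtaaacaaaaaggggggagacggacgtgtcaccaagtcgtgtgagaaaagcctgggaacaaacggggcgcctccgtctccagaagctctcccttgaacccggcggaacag

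Olig2, Sox8 and Lrrn1 were called in opposite directions at the 2 ages; Sox8 was singled out after its values were seen. Olig2, a factor of motor neuron and oligodendrocyte progenitors, had 14.3 CPM in CTX and 145.5 in GE at E15.5, and 524 and 206 at E18.5. It was thus lowest in the E15.5 CTX library and highest in the E18.5 CTX library. Sox8, which acts in glial progenitors, had 10.1 and 37.5 CPM, and then 146 and 65.5. Lrrn1, a membrane protein with leucine-rich repeats, had 22.8 and 51.0 CPM, and then 121 and 53.1. No CTX-higher gene of E15.5 was called GE-higher at E18.5. Of the oligodendrocyte list, which holds Olig2, 3 members were measured at E15.5 and Olig2 alone was called. At E18.5, 10 members were measured, most of them under 20 CPM at E15.5, and 9 were higher in CTX (median log2 ratio 2.17). Dll3, a Notch ligand of neurogenic progenitors, went from 44.0 and 198 CPM to 221 and 145.5.

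**Figure D4:**
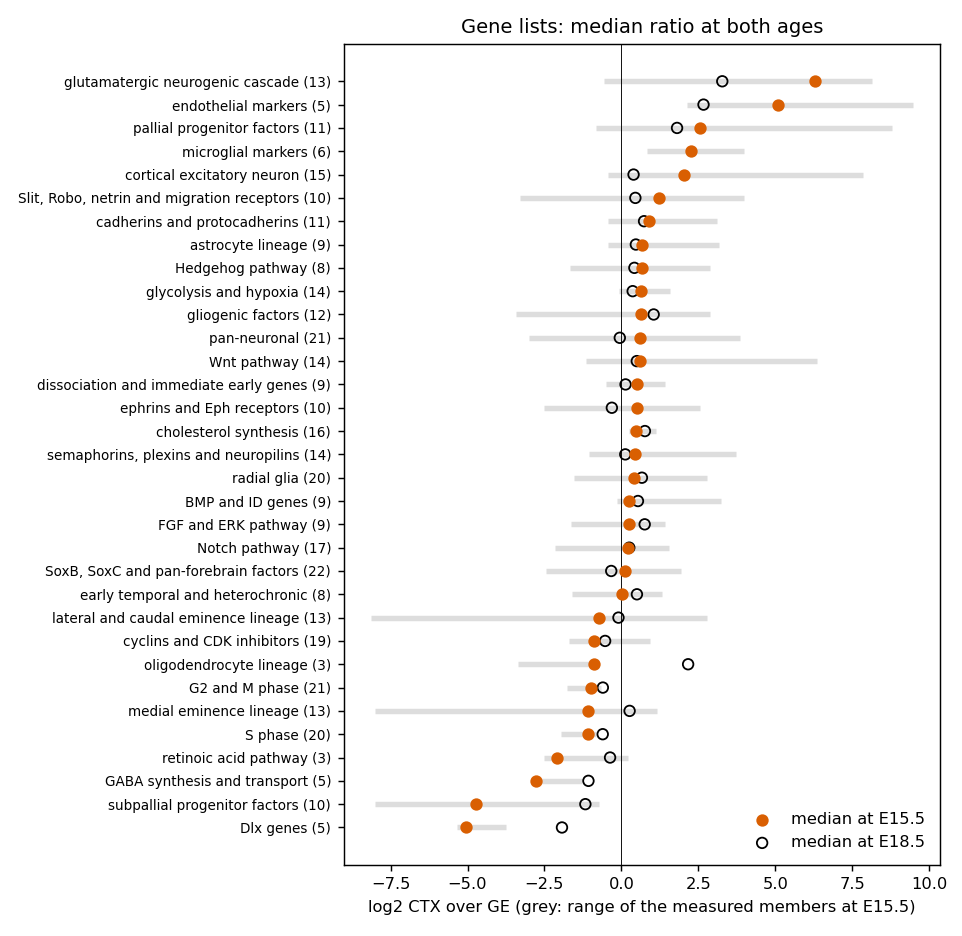
Median log2 ratio of CTX to GE for gene lists at E15.5 (orange) and E18.5 (open circles, over the members measured there). Lists with at least 3 members measured at E15.5 (number in brackets) are drawn, except the erythroid list (4 members, median 8.07). Grey bars give the range of members at E15.5. Dorsal lists lie right of 0 and ventral lists left (6.28 for the glutamatergic cascade, -5.06 for Dlx genes), with nearer medians at E18.5.

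Several pathways had members on both sides. Of 17 Notch genes 4 were higher in CTX and 2 in GE (median log2 ratio 0.21): the effector Hey1 (46.9 and 16.2 CPM), Cbfa2t2 (121 and 44.96 CPM) and Numbl (63.3 and 29.4 CPM) in CTX, against the ligand Dll3 and Hes5 in GE. With TMM scaling these counts were 2 and 3, and Numbl was no longer called. Of 14 Wnt genes 4 were higher in CTX and 1 in GE (median 0.60, or 2 and 1 with TMM scaling). The Wnt inhibitor Sfrp1 had 324 and 129 CPM, the receptor gene Fzd8 47.9 and 18.7 CPM, and the enhancer of Wnt signalling Rspo3 21.0 CPM in CTX and 0 UMIs in GE, at least 6.37 higher in log2. Of 20 radial glia genes 5 were higher in CTX and 3 in GE (median 0.41, or 2 and 3 with TMM scaling): the glycolytic enzyme Aldoc had 329 and 55.7 CPM, and Sox1, a relative of Sox2, 58.3 and 171 CPM. Crabp2, a retinoic acid carrier, had 3.74 and 21.2 CPM. Of 9 BMP and ID genes 2 were higher in CTX and 0 in GE: Id2, an inhibitor of bHLH factors like Id4, had 503 and 52.7 CPM. Of 11 cadherins 5 were higher in CTX and 0 in GE, among them Celsr1 (99.2 and 11.4 CPM), a planar polarity cadherin.

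Genes of migration and guidance split by region. Of 10 measured Slit, Robo, netrin and migration genes 6 were higher in CTX and 2 in GE (median log2 ratio 1.21). Unc5d, a netrin receptor of multipolar cortical cells, had 40.6 and 2.54 CPM, and Dab1, which transmits the reelin signal, 95.4 and 16.9 CPM. On the other side Slit1, a repellent ligand, had 3.74 and 37.2 CPM, and Ackr3, a chemokine receptor of migrating interneurons, 18.6 and 117 CPM. Among ephrins and their receptors Epha7 (31.7 and 5.42 CPM) and Efnb2 (93.2 and 33.4 CPM) were higher in CTX and Efna5 (8.25 and 47.3 CPM) in GE. In stress-related genes, 1 of 9 immediate early genes was called (Ier2, 119 and 44.2 CPM), and Egr1 was just under 2-fold (log2 ratio 0.95).

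The ratios were also taken among cells with a Mki67 or Top2a UMI, called dividing here, and among cells without. Each cell was thinned to 10000 UMIs. The split does not set S phase genes apart in GE: Mcm3 had 222.3 CPM in cells with such a UMI and 206.4 in cells without. In CTX these were 126.4 and 78.7 CPM, so the cells without were not in a like state in the libraries. Of the 487 CTX-higher genes, 284 were called the same way both among cells with a Mki67 or Top2a UMI and among cells without, and 32 in neither. Of the 366 GE-higher genes these were 169 and 89. In the E15.5-only class 47 of 130 and 36 of 79 were called in both states, and 23 and 16 in neither. Helt had log2 ratios of -4.97 in dividing cells and -5.84 in the others, and Rnd2 2.68 and 1.85. Sfxn5, a mitochondrial carrier, had 2.59 in dividing cells and 0.09 in the others, and Sparc 2.06 and 0.84. The split moves with depth: over the other settings, which split unthinned cells, the lowest log2 ratio of Sfxn5 was 0.39. Among the E15.5-only genes on the GE side, Pcna had -1.26 and -1.64. Mcm2, Mcm3, Mcm6, Cdkn2c and Hes5 were called only among cells without a Mki67 or Top2a UMI. Their log2 ratios in cells with one were -0.84, -0.81, -0.87, -0.67 and -0.60. Ccnd2 had -1.71 and -1.32. Cdk1 and Aurkb were called in neither state. Genes expressed together with Mki67 and Top2a are low by the split itself in cells without them, such as Nusap1, a spindle protein (11.4 and 12.4 CPM).

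**Figure D5:**
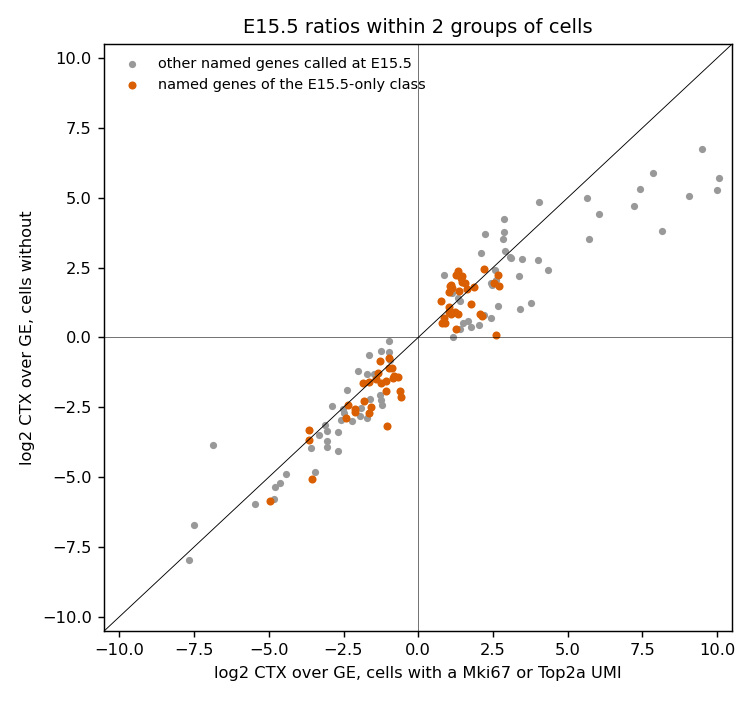
Log2 ratio of CTX to GE at E15.5 among cells with a Mki67 or Top2a UMI (x axis) and among cells without (y axis), for 141 named genes with UMIs in all 4 groups of cells, 60 of them of the E15.5-only class (orange). Points lie along the diagonal line of equal ratios, with Sfxn5 (2.59 and 0.09) among those off it.

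Some of the largest CTX ratios lay in a few cells of other types. All 5 measured endothelial markers, both mural markers, 5 of 6 microglial and all 4 erythroid markers were higher in CTX. In the CTX library 14 barcodes held 2792 of 2901 endothelial UMIs, 3 barcodes 1416 of 1424 microglial UMIs, and 1 barcode 14303 of 14447 erythroid UMIs. The summed endothelial level was 374 CPM in CTX and 11.3 CPM in GE, where Cdh5 and Ly6c1 were at 0, and the microglial level 184 and 45.3 CPM. Cldn5, a tight junction protein of vessels, had 121 and 0.169 CPM, and its log2 ratio of 9.48 went to 0.65 without such barcodes. Igfbp7, Vtn and Rgs5 went from 8.06, 7.58 and 7.15 to 1.91, 2.45 and 1.91. Ebf1, a factor of striatal neurons that vessel wall cells also express, went from 0.42 to -1.91. Emx1 (8.79 to 8.83), Nrn1 (9.68 to 9.72), Helt (-5.81 to -5.95) and Rnd2 (2.66 to 2.70) were as large without them. Choroid plexus, ependymal, fibroblast and Cajal-Retzius lists had 0 measured genes at E15.5.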

How the data were processed

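The authors deposited, for each library, a matrix of whole-number UMI counts per gene and barcode with a list of 27998 genes and a list of barcodes. The submitters' processing notes name Cell Ranger 1.3.1, Seurat and the build mm10. The annotation release and the rule for calling cells are not stated in the sources at hand. The counts are 3' tags, so levels were compared within a gene and not between genes.

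Barcodes were kept as described in the opening, which needs no cell type names. No doublet caller was run. Barcodes with both Xist and a Y-linked UMI were counted as a possible sign of more than 1 cell, and leaving them out is an alternative. CPM are a library's summed UMIs per 1000000 of its total without 13 mitochondrial, 85 ribosomal protein and 10 haemoglobin genes. Ratios carry exact conditional binomial 95% intervals, shares exact Clopper-Pearson intervals, and the difference of 2 log2 ratios a normal interval from the 4 counts. A library at 0 was set to 3 counts, which gives a bound. Cells were thinned once with a fixed seed to 10000 UMIs at E15.5, or to 4000 where ages were compared. With 1 library per group there is no test. The ratios, intervals and calls were tried on simulated counts that hold counting error only. Such counts cannot show how the methods do under a spread between cells, embryos or libraries.

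The genes named are the 12 with the largest log2 ratio in each of 4 sets (higher in CTX or GE at E15.5, and the same among genes of E15.5 only), without unnamed predicted genes, up to 4 members of each of 40 gene lists and their E15.5-only members, and 23 genes named in any case. Members and lists were chosen with earlier results of these data known. The alternatives were another scaling (TMM in edgeR 4.0.16, median of ratios, totals over all genes), other limits on UMIs, mitochondrial UMIs, CPM and fold, another weight or depth of cells, and cells by state. Leaving out barcodes with 10 or more UMIs of vascular, blood and microglial markers was added after seeing the data. Gene positions come from GENCODE M21 and upstream sequences from RefSeq. Python 3.11.15, numpy 2.4.6, scipy 1.17.1, pandas 2.3.3 and R 4.3.3 were used.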

Additional observations from a re-analysis of the deposited data

Results flagged for a closer look

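The CTX to GE ratio of 3 genes pointed one way at E15.5 and the other way at E18.5, with 1 library in each group and no test of the difference. The log2 ratio at E15.5 less that at E18.5 was -4.70 for Olig2 (-4.98 to -4.41), -3.05 for Sox8 and -2.35 for Lrrn1, with intervals for counting error only.

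Barcodes over 30000 UMIs were used only in the alternative with no UMI limit. They held UMIs of both Xist and a Y-linked gene in 88.1% of cases in the E15.5 CTX library and 88.3% in the E15.5 GE library. The kept cells had 35.7% and 22.6%.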

How the results depend on the processing

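The lists of E15.5-only genes depend on their limits. Counts of CTX-higher and GE-higher genes at E15.5 were 1891 and 792 with no CPM minimum, 237 and 228 with a minimum of 50 CPM, and 976 and 688 at 1.5-fold. At E18.5 the same settings gave 1273 and 442, 123 and 62, and 775 and 384, and GE-higher genes at E18.5 were 177 with TMM and 183 with median-of-ratios scaling. The E15.5-only class held 513 and 248 genes with no CPM minimum, 51 and 31 with a minimum of 50 CPM, 452 and 275 at 1.5-fold, 251 and 245 with an E18.5 limit of 1 in log2, and 52 and 27 with a limit of 0.25. Among unthinned cells with a Mki67 or Top2a UMI, 71 CTX-higher and 62 GE-higher genes were in the class. Of these, 55 and 39 were among the 130 and 79 genes. Among cells without, 131 and 124 genes were in the class, and 45 and 31 of them were among the 130 and 79. With TMM 83 of the 130 and 45 of the 79 genes stayed in it, and with no UMI limit 97 and 58.

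With at least 10 UMIs in place of 5, 2.96% of CTX cells had the ventral set, 79.7% of CTX cells the dorsal set and 84.1% of GE cells the ventral set. The E15.5 log2 ratio changed sign for Aurkb (0.13) and Lss (-0.09) among unthinned cells without Mki67 and Top2a. These values differ from those of the split at 10000 UMIs. It also changed sign for C1qb (-0.35) and Esam (-0.58) without vascular, blood and microglial barcodes. No named gene that was called at E15.5 changed sign under the other settings in which single genes were recomputed. No paired analysis was possible because each group holds 1 library. Of the genes at least 2-fold apart, those near 20 CPM rest on about the fewest UMIs, and no setting measures the spread between embryos.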

Other observations

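Metabolic genes leaned to CTX at E15.5 with few calls. Of 16 measured genes of cholesterol synthesis 3 were higher in CTX and 0 in GE, with log2 ratios from 0.26 to 1.11 (median 0.48): the enzymes Lss (21.6 and 10.2 CPM), Mvd (50.1 and 23.3 CPM) and Sc5d (42.8 and 20.9 CPM). With TMM scaling 0 of 16 were called, and these 3 genes had log2 ratios of 0.94, 0.95 and 0.88. In cells without Mki67 and Top2a at 10000 UMIs the log2 ratios of Mvd and Sc5d were 0.31 and 0.00, against 1.39 and 1.18 in cells with either, and Lss had a ratio of 0.51 in the former and a higher one in the latter. Of 14 glycolysis and hypoxia genes 2 were higher in CTX and 0 in GE (median 0.65), and with TMM scaling 1 of 12 measured was, without Bnip3 (log2 ratio 0.99): Bnip3, a mitochondrial protein of the hypoxia response, had 49.9 and 22.6 CPM, and Slc2a1, the glucose transporter of brain vessels, 66.9 and 22.5 CPM, with 52.0% of its CTX UMIs in the barcodes rich in vascular, blood and microglial genes.

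Early temporal genes pointed to both sides. Of 8 measured, 1 was higher in CTX (Sfrp1) and 3 in GE: Lmo1 (166 and 377 CPM) and Lmo4 (58.9 and 181 CPM), which are LIM-only cofactors, and Hmga1 (38.3 and 84.3 CPM), a chromatin protein of early progenitors. Hmga1 and Lmo4 were within 1.41-fold at E18.5, with 31.0 and 25.1 CPM for Hmga1 and 118 and 151 CPM for Lmo4. Of 9 measured astrocyte genes 2 were higher in CTX and 0 in GE, Aldoc and Sparcl1 (54.6 and 6.10 CPM), and 70.0% of the CTX UMIs of Sparcl1 lay in the same barcodes.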
